A study of Mus musculus with 5 samples.

Results

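The genes of specific and gelatinase granules are 10 genes whose products neutrophil precursors pack into their later granules: Ltf, Camp, Ngp, Lcn2, Mmp8, Mmp9, Chil3, Fcnb, Cd177 and Itgb2l. They were taken by symbol from the 31053 genes of the count tables, and all 10 were found in all 5 libraries. RNA of single cells was measured in BALB/c mouse bone marrow (BM) with 1 library per group. Whole BM, enriched for live cells and labelled CD45+ mononuclear cells, came from untreated mice (naive) and from mice 2 days (D2 CTX) or 7 days (D7 CTX) after an intraperitoneal dose of 150 mg/kg cyclophosphamide (CTX), an alkylating agent that kills dividing cells. Each whole BM library was a pool of equal cell numbers from 3 mice. The remaining 2 libraries were sorted on CD11b+Ly6Chi monocytes, from naive and from CTX marrow, the latter on day 7 by the study's methods and with no day in the labels, and how many mice each came from was not stated. A pool gives no spread between mice, so no test between groups and no p-value was possible, and a difference below is a difference between single libraries.

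Neutrophils form their granules in waves while they mature. Azurophil granules are filled in granulocyte-monocyte progenitors (GMPs) and promyelocytes, specific granules in myelocytes and metamyelocytes, and gelatinase granules in band cells, and the protein that a cell makes at a stage goes into the granule being formed then. C/EBP epsilon drives the specific granule wave, and its loss leaves neutrophils without these granules. Of the 10 genes, Fcnb encodes ficolin B, a lectin that recognises microbial sugars, and Chil3 encodes Ym1, a chitinase-like lectin without enzyme activity. Camp encodes the cathelicidin CRAMP, Ngp a cathelin-related granule protein, Ltf the iron-binding lactoferrin and Lcn2 lipocalin 2, which withholds iron by binding bacterial siderophores. Cd177 encodes a surface glycoprotein of neutrophils, Itgb2l is a gene close in sequence to the β2 integrin gene Itgb2, and Mmp8 and Mmp9 encode neutrophil collagenase and gelatinase B, which cleave extracellular matrix.

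Camp, Ngp and Ltf lie within 1.195 Mb of one another on chromosome 9 of GRCm38, where GENCODE M21 places Camp at chr9:109847379-109849617 on the minus strand, Ngp at chr9:110419747-110423012 and Ltf at chr9:111019271-111042767, both on the plus strand. Mmp8 lies far from them on the same chromosome, at chr9:7558456-7568485 (plus). On chromosome 2 are Fcnb at chr2:28076378-28084885 (minus), Lcn2 at chr2:32384633-32388252 (minus) and Mmp9 at chr2:164940780-164955850 (plus). Chil3 is at chr3:106147554-106167564 (minus), Cd177 at chr7:24743983-24760311 (minus) and Itgb2l at chr16:96422288-96443619 (minus), where it overlaps Igsf5 on the opposite strand, which was not used here. Reads of Chil3, Fcnb and Itgb2l could be shared with the similar genes Chil4, Fcna and Itgb2, so their values carry that doubt, although Chil4 had at most 2 UMIs (unique molecular identifiers, counted RNA molecules) in a library.

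Promoter sequence is shown for 6 genes, chosen because their levels peaked at different stages of the neutrophil series described further on: Fcnb in GMP-like cells, Chil3 in cycling precursors, Ngp and Ltf before or at the immature stage, Cd177 at the immature stage and Mmp8 in mature cells. Each run is taken from up to 250 bases before the RefSeq start on GRCm38.p6, 5′ to 3′ on the strand of the gene, without bases inside the GENCODE gene. Capitals mark matches to TTNNGNAA, letters of C/EBP binding sites, on either strand. The windows are chr2:28084886-28085128 (minus), chr3:106167565-106167814 (minus), chr9:110419558-110419746 (plus), chr9:111019042-111019270 (plus), chr7:24760312-24760561 (minus) and chr9:7558179-7558428 (plus).
Fcnb: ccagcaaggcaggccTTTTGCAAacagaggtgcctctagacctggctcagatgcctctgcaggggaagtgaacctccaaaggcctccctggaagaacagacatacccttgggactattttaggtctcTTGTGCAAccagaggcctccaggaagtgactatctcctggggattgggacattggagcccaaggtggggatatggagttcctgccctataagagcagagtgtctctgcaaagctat
Chil3: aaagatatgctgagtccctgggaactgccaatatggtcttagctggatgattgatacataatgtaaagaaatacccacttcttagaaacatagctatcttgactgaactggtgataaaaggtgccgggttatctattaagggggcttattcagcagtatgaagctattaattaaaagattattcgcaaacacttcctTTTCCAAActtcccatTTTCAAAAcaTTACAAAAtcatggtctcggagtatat
Ngp: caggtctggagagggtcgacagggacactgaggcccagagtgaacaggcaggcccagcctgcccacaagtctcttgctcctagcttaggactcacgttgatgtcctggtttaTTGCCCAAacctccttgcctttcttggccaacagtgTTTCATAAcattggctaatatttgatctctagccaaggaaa
Ltf: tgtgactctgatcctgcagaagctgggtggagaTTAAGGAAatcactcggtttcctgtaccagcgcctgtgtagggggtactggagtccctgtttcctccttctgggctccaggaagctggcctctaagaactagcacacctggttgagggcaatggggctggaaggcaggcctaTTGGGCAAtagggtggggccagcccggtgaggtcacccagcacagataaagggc
Cd177: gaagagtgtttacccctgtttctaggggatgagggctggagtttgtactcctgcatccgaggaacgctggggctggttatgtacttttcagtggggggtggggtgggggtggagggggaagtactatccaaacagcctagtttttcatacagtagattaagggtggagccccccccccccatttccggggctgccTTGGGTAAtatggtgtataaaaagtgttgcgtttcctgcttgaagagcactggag
Mmp8: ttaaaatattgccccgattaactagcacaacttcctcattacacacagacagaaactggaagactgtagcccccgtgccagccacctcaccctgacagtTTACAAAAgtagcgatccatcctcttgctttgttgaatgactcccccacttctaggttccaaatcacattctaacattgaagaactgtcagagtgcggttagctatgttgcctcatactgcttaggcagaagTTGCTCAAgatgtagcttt

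In the full 250 bases, 8 of the 9 members with an entry in the RefSeq promoter table held the C/EBP letters, Camp being the exception, against 36.8% of the 32851 promoters in the table. The full windows can reach into the GENCODE gene. All 250 bases for Lcn2 and 161 of those for Camp lay inside it. GAGGAA, letters of PU.1 sites, stood in 5 of the 9 on either strand, against 23.3% of all promoters. Mmp9 had no entry. Such a match is a description of the letters in this window and not evidence of binding.

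The libraries held 2223 to 8605 barcodes and 22694817 to 68459527 UMIs, and cells that passed the study's limits (200 or more genes, under 20% mitochondrial UMIs) numbered 7104 in naive BM, 6126 on D2, 8290 on D7 and 1891 and 2564 in the sorted naive and CTX libraries, with medians of 3034 to 10299 UMIs per cell. Pairs of libraries shared 2 to 16 barcodes, at most 0.360% of the smaller one. Of the UMIs of these cells, the 10 genes supplied 3.90% in naive BM, 2.93% on D2 and 8.04% on D7, and 0.154% and 0.244% in the sorted naive and CTX cells. Cells were placed in stages by the mean log-normalised level of marker genes that exclude the 10: Mpo, Elane, Prtn3, Ctsg and Ms4a3 for GMP-like cells, Mki67 and other cell cycle genes for cycling precursors, Cebpe, Gstm1, Serpinb1a, Mgst1 and Ly6g for pre-neutrophil-like cells, Ly6g, Wfdc21, Retnlg and Adam8 for immature and Il1b, Cxcr2, Clec4d, Csf3r and others for mature neutrophil-like cells. To count as a cycling precursor, a cell also had to reach 0.85 on the pre-neutrophil-like or 1.3 on the immature score. The naive, D2 CTX and D7 CTX libraries gave 160, 40 and 420 GMP-like cells, 403, 233 and 1407 cycling precursors, 408, 27 and 857 pre-neutrophil-like, 965, 581 and 2715 immature and 1120, 1779 and 1340 mature neutrophil-like cells. The stages are ranges of a score: between 13.6% and 22.2% of immature cells lay within 0.1 of a limit, and 14 of the 27 pre-neutrophil-like cells at D2 CTX did. Mature neutrophil-like cells were thus 15.8%, 29.0% and 16.2% of the kept cells although the label calls them mononuclear, and 96.7% and 94.5% of the sorted naive and CTX cells had a monocyte-like score.

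Levels are UMIs per 1000000 (CPM), summed over the cells of a class. The counts are not scaled to transcript length, so a level of 1 gene is compared with its own level elsewhere and not with that of another gene. All intervals are at 95% and cover counting error only: exact Poisson intervals for CPM, exact conditional ones for ratios and Clopper-Pearson ones for shares of cells. B lineage-like cells, which should lack these transcripts, show what free RNA in the droplets and mixed droplets add. In these cells the 10 genes together stood at 561, 288 and 2849 CPM in naive, D2 CTX and D7 CTX BM, with medians per cell of 0.0181%, 0.0219% and 0.0469% of UMIs and single cells of up to 7.60%, 1.43% and 10.8%. No doublet caller was run, and cells that met the markers of more than 1 lineage were left out of the classes (318, 425 and 158 cells).

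In naive BM the 10 genes were highest at different neutrophil stages, from Fcnb in GMP-like cells to Mmp8 and Mmp9 in mature cells. Together they made up a median of 0.109% of the UMIs of a GMP-like cell, 14.2% in cycling precursors, 14.6% in pre-neutrophil-like cells, 9.72% in immature and 1.22% in mature neutrophil-like cells. Of all their UMIs in naive BM, 37.0% lay in the 403 cycling precursors, 22.6% in pre-neutrophil-like, 23.5% in immature and 5.63% in mature cells. GMP-like cells were uneven: 10% of them held at least 7.80% of UMIs from the 10 genes, so their summed levels rest on a part of the cells.

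**Figure D1:**
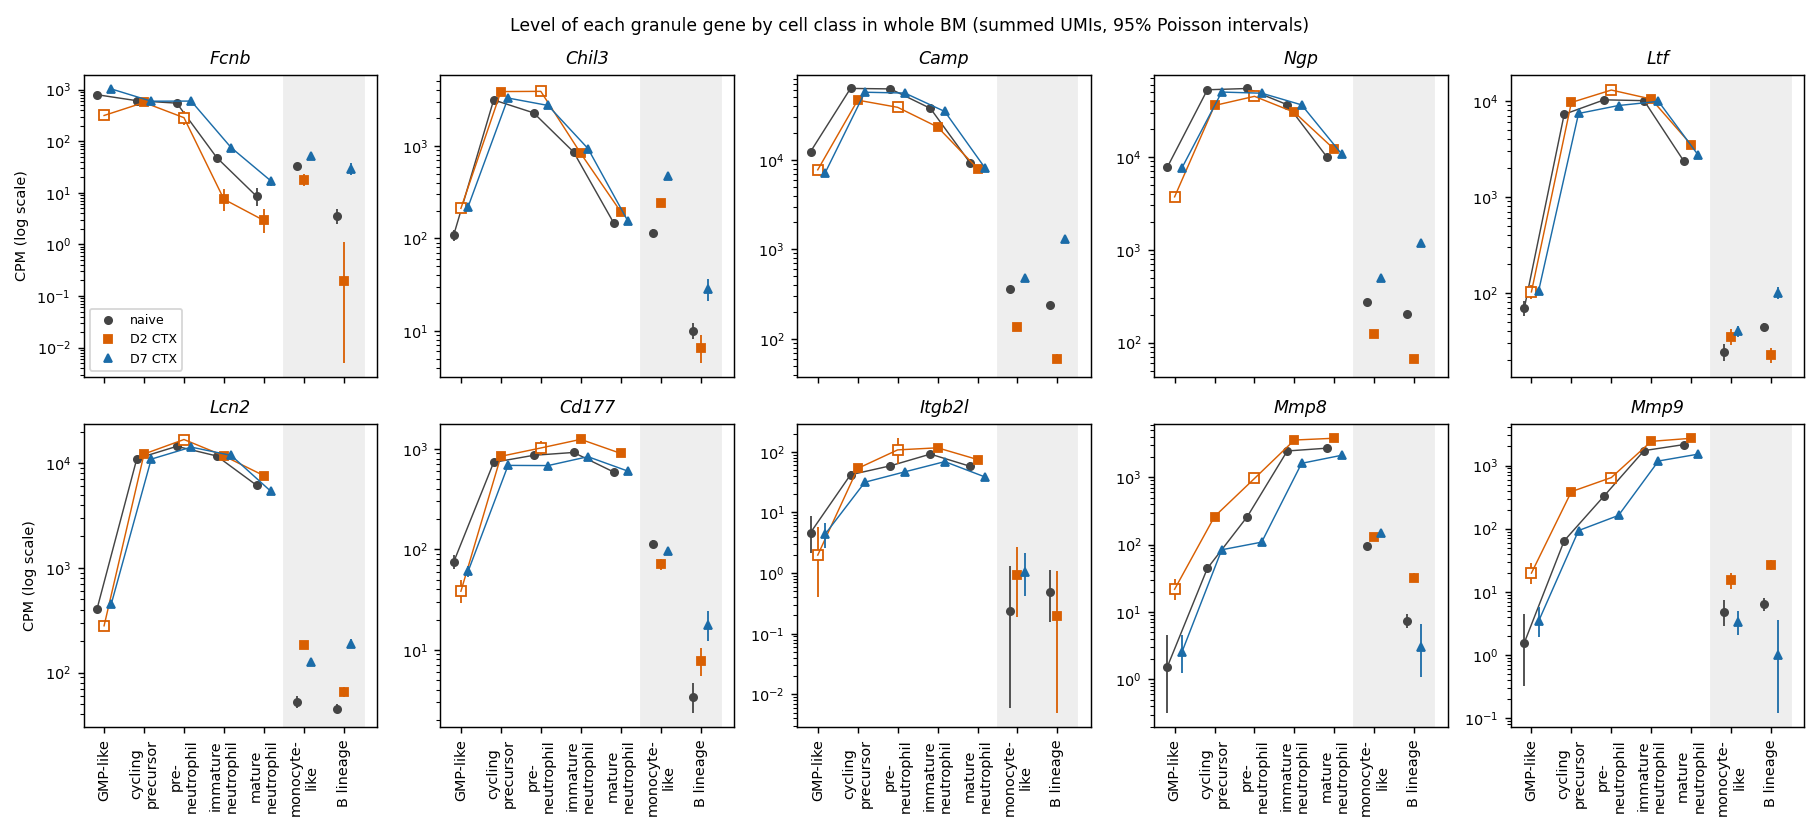
Level of each of the 10 genes in whole BM, in CPM on a log axis with a scale of its own for each gene, by cell class in naive (circles), D2 CTX (squares) and D7 CTX (triangles) libraries. Bars are exact Poisson 95% intervals, hollow points rest on fewer than 50 cells, levels at 0 UMIs are not drawn, and grey marks cells outside the neutrophil series. In naive BM, Fcnb is highest in GMP-like and Chil3 in cycling cells and both are lower from the immature stage on, while Mmp8 and Mmp9 climb to 2706 and 2144 CPM in naive mature cells.

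Fcnb was the earliest. From GMP-like through cycling, pre-neutrophil-like and immature to mature cells of naive BM, it stood at 799, 611, 548, 48.3 and 8.54 CPM, against 3.48 CPM in B lineage-like cells. It was thus highest in GMP-like cells, and its pre-neutrophil-like level was 64.2 times the mature one. The same 5 stages held 316, 565, 286, 7.51 and 2.92 CPM at D2 CTX and 1034, 598, 601, 75.3 and 16.9 CPM at D7 CTX, where GMP-like cells were again highest on D7 and cycling precursors on D2. Chil3 was low in GMP-like cells and highest in cycling precursors, at 109, 3156, 2287, 863 and 148 CPM over the 5 stages. In treated BM it followed the same course, at 212, 3887, 3908, 832 and 195 CPM on D2 and 220.3, 3309, 2749.9, 940.3 and 154 CPM on D7, and on D2 its cycling and pre-neutrophil-like levels could not be told apart (log2 ratio 0.01, -0.11 to 0.12).

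Camp and Ngp were several times higher in cycling than in GMP-like cells and lower again from the immature stage on. Camp stood at 12362, 62859, 62085, 37614 and 9172 CPM over the naive stages, so that it was 6.77 times higher in pre-neutrophil-like than in mature cells. Ngp stood at 7768, 52709.8, 54434, 36416 and 9877 CPM, 5.51 times higher in pre-neutrophil-like than in mature cells. Both were highest in cycling or pre-neutrophil-like cells of all 3 libraries, and the levels of these stages were close, with a naive log2 ratio of 0.02 for Camp (cycling over pre-neutrophil-like) and 0.05 for Ngp (the reverse). They were also the members most abundant in B lineage-like cells, at 239, 59.9 and 1307 CPM for Camp and 201, 66.8 and 1174 CPM for Ngp in naive, D2 CTX and D7 CTX BM.

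The iron-related cargo was highest in pre-neutrophil-like cells of naive BM. Ltf, lactoferrin, stood at 69.2, 7245, 10248, 10049 and 2343 CPM over the naive stages, a step of 105 times from GMP-like to cycling cells. Its pre-neutrophil-like and immature levels differed by a log2 ratio of 0.03 (0.01 to 0.05), and at D7 CTX their order was the reverse (8941 and 9882 CPM). Lcn2, lipocalin 2, stood at 401, 11021, 14442, 11686 and 6134 CPM, with its peak in pre-neutrophil-like cells of all 3 libraries, and of the 4 cargo genes of this wave it was the one best kept at the end, at a mature level 2.35 times below the pre-neutrophil-like one. The surface genes were highest one stage later. Cd177 stood at 74.9, 734, 862, 921 and 589 CPM and Itgb2l at 4.65, 41.7, 58.7, 91.5 and 57.5 CPM, both highest in immature cells of all 3 libraries. For Itgb2l, which had 1005 UMIs in naive BM, the immature and pre-neutrophil-like levels at D2 CTX could not be told apart (log2 ratio 0.11, -0.57 to 0.89).

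The gelatinases were the last. Mmp8 stood at 1.55, 44.5, 261, 2458 and 2706 CPM over the naive stages and Mmp9 at 1.55, 64.3, 329.7, 1721 and 2144 CPM, both highest in mature cells of all 3 libraries. From pre-neutrophil-like to mature cells, Mmp8 was 10.4 times and Mmp9 6.505 times higher in naive BM, 3.95 and 4.19 times at D2 CTX, and 19.4 and 9.36 times at D7 CTX. The levels in GMP-like cells rested on 3 UMIs of each gene in naive BM. To equalise depth, each cell with at least 1000 UMIs was thinned to 1000, and cells with fewer were left out of the thinned shares. After thinning, Mmp8 was found in 4.77% (2.90 to 7.35) of naive cycling precursors, 83.5% (81.0 to 85.8) of immature and 83.4% (81.1 to 85.6) of mature cells, against 0.718% (0.393 to 1.201) of B lineage-like cells, where the unthinned shares were 14.6%, 93.2%, 91.3% and 2.23%. Fcnb ran the other way, from 39.7% (34.9 to 44.7) of cycling precursors to 2.32% (1.46 to 3.49) of immature and 0.851% (0.390 to 1.61) of mature cells (unthinned 88.6%, 7.77% and 1.43%), with 0.205% (0.0559 to 0.524) of B lineage-like cells.

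Over the 13 pairs of neutrophil stage and whole BM library that held at least 50 cells, the log levels of some members ran closely together. Pearson's r was 0.995 between Mmp8 and Mmp9, 0.994 between Ltf and Lcn2, 0.973 between Cd177 and Itgb2l and 0.965 between Camp and Ngp, and -0.847 between Fcnb and Mmp8. Pairs with different peak stages could be as close, such as Cd177 with Lcn2 (0.971) and with Ltf (0.966), while Ngp with Lcn2, both highest in naive pre-neutrophil-like cells, had 0.794. The points share libraries and stages, so these values are a description. Among 5991 other genes, the 10 whose level was most alike to the sum of the members over the same points were Arhgdib (r = 0.966), Ube2l6, Hsd17b7, Atg16l2, Cpne3, Ap2a2, Inhba, Zmpste24, Fmnl2 and Mlst8 (r = 0.913). Among single immature cells of naive BM, thinned to 1000 UMIs, Spearman's rho was 0.811 between Camp and Ngp, 0.701 between Ltf and Ngp, 0.405 between Mmp8 and Mmp9 and -0.424 between Camp and Mmp8. Cd177 and Itgb2l had a rho of 0.00594. Itgb2l had 379 UMIs in the 965 immature cells before thinning, so most cells held none and this rho cannot show whether the genes vary together.

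**Figure D2:**
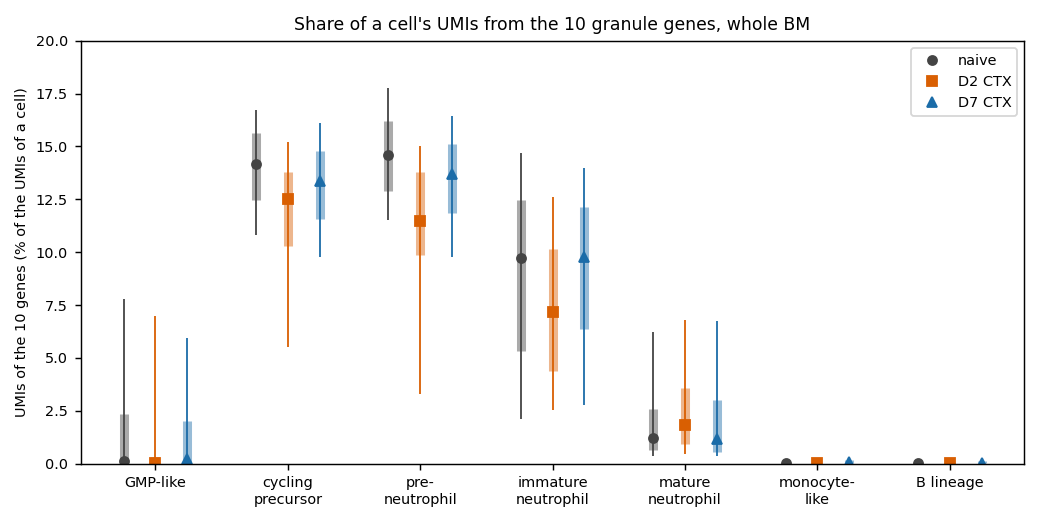
Share of a cell's UMIs that came from the 10 genes, in percent, by cell class in the 3 whole BM libraries. Points are medians over cells, thick bars span the middle 50% and thin lines the 10th to 90th percentile. Naive medians go from 14.6% in pre-neutrophil-like to 9.72% in immature and 1.22% in mature cells.

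Whole libraries show what part of the marrow's RNA came from granule genes before and after CTX. Here fewer cells of a type and less RNA per cell cannot be told apart. On D2 the sum of the 10 genes was lower than in naive BM and on D7 it was higher, and the members did not move alike on D2. Fcnb stood at 151, 92.9 and 321 CPM, Camp at 16242, 9930.1 and 32260.4 CPM and Ngp at 14304, 9628 and 30224 CPM in naive, D2 CTX and D7 CTX BM. These 3 were lower on D2 and higher on D7 than in naive BM, with D2 log2 ratios of -0.70 (95% interval -0.76 to -0.64), -0.71 (95% interval -0.72 to -0.70) and -0.57 (95% interval -0.58 to -0.57). Chil3 stood at 620.4, 666 and 1519 CPM, Ltf at 2678, 2804 and 5969 CPM and Lcn2 at 3841, 4002 and 8299 CPM. On D2 these were within 0.10 log2 units of naive BM. Cd177 stood at 291, 379.6 and 561 CPM and Itgb2l at 21.8, 29.8 and 36.6 CPM. Mmp8 at 469, 1005 and 703 CPM and Mmp9 at 356, 726 and 516 CPM had their highest level on D2, with log2 ratios over naive of 1.098 (95% interval 1.07 to 1.12) and 1.03 (95% interval 0.9997 to 1.06).

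Of the 10 members, 2 (Mmp8 and Mmp9) were at least 1 log2 unit higher on D2 with 1 CPM added, against 5.4% of the 6221 genes with 200 UMIs or more in the pair and 20 CPM or more in either library, and 0 were at least 1 lower, against 3.21%. On D7, 5 members (Ltf, Ngp, Lcn2, Chil3 and Fcnb) were at least 1 log2 unit higher, against 1.41% of 5608 genes, and 0 were lower, against 22.3%. The D7 log2 ratios of all 10 lay between 0.54 (Mmp9) and 1.29 (Chil3), and that of their sum was 1.04 (95% interval 1.04 to 1.05), from 38973 to 80409 CPM. The sum on D2 was 29263 CPM, a log2 ratio of -0.41 (95% interval -0.42 to -0.41). The median of all genes tested differed too, by a log2 ratio of 0.17 on D2 and -0.58 on D7, so that relative to the median gene the sum differed by -0.58 on D2 and 1.62 on D7. On that scale Chil3, Ltf and Lcn2 turned from slightly above to slightly below naive on D2 (-0.06, -0.10 and -0.11), 0 members were at least 1 log2 unit higher on D2 and all 10 were on D7. Over all genes, scaling to the median gene turned 79 higher and 1250 lower calls on D7 into 455 and 354.

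**Figure D3:**
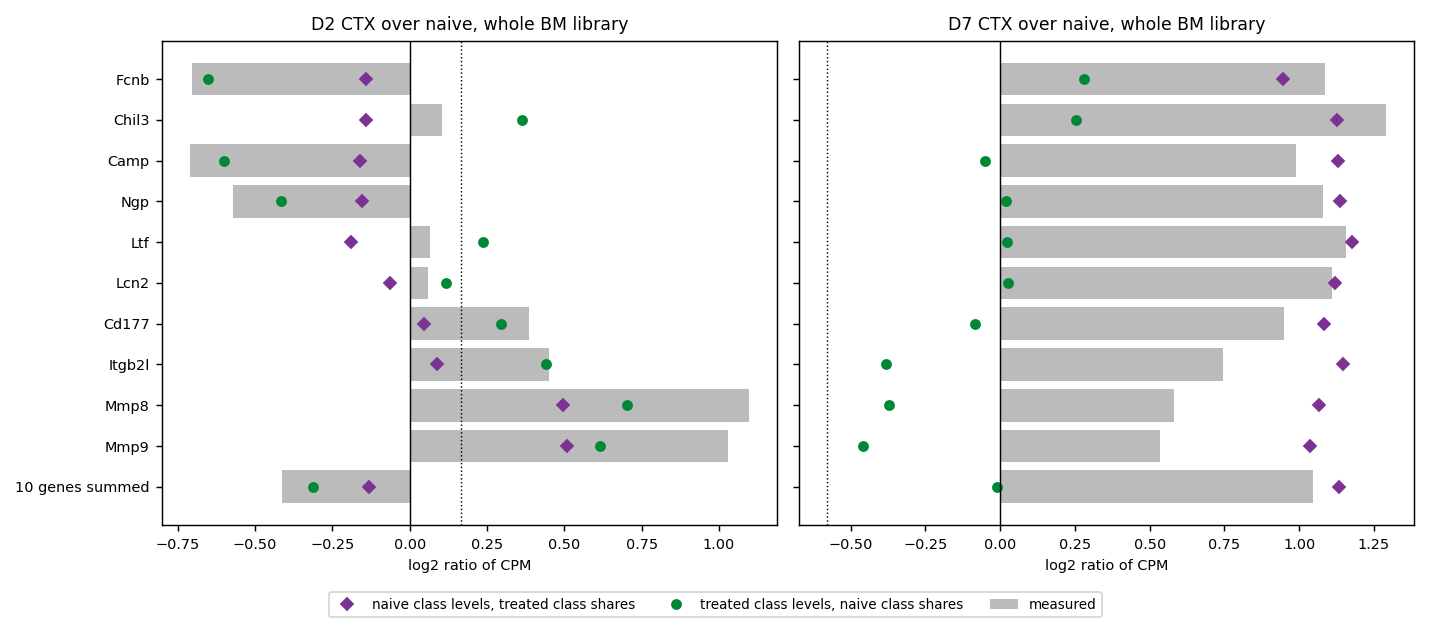
Log2 ratio of CPM in D2 CTX (left) and D7 CTX (right) over naive whole BM for each member and their sum (grey bars), with the ratio computed when naive class levels are combined with the treated library's class shares (diamonds) and when treated class levels are combined with naive shares (circles). The dotted line is the median gene. On D7 the diamonds lie near the bars, at 1.13 for the sum, while on D2 the circles lie nearer for the sum and for every member but Chil3.

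To see what the cell classes contributed, each class of 1 library was given the share of UMIs it had in the other. Naive levels with D7 CTX class shares gave a log2 ratio of 1.13 for the sum, close to the measured 1.04, and D7 CTX levels with naive shares gave -0.01. Immature neutrophil-like cells were 13.6% in naive BM, 9.48% on D2 and 32.8% on D7 of the kept cells. For Mmp8 and Mmp9, the D7 shares alone gave 1.07 and 1.04 and the D7 levels alone -0.37 and -0.46. Their levels were below naive from pre-neutrophil-like to mature cells and above it in cycling precursors. On D2, shares and levels both put Mmp8 above naive (0.49 and 0.70) and Mmp9 as well (0.51 and 0.61). For Fcnb and Camp on D2, the levels gave -0.65 and -0.60 and the shares -0.14 and -0.16. For the sum on D2, the levels gave -0.31 and the shares -0.13, and the levels lay nearer the measured ratio for every member but Chil3.

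Within stages on D2, Camp was lower than naive at every stage from GMP-like to mature cells, Mmp8 and Mmp9 were higher from cycling precursors on, and the members past 2 log2 units, among those with enough UMIs for the count, were Fcnb in immature cells and Mmp8 and Mmp9 in cycling precursors. All 10 members were counted in cycling precursors and immature cells, 9 in pre-neutrophil-like (not Itgb2l) and mature cells (not Fcnb) and 7 in GMP-like cells (not Mmp8, Mmp9 and Itgb2l). The median gene of a stage stood 0.29 to 0.31 log2 units above naive in cycling precursors, immature and mature cells, and 0.21 above in the 27 pre-neutrophil-like cells. In immature neutrophil-like cells Fcnb stood at 48.3, 7.51 and 75.3 CPM in naive, D2 CTX and D7 CTX BM, a D2 log2 ratio of -2.69 (95% interval -3.45 to -2.00), or -2.99 relative to the median gene. It was the only member at least 1 log2 unit lower there, against 0.401% of genes, and 0 members were at least 1 higher, against 2.33%. The D2 level rested on 19 UMIs, and B lineage-like cells stood at 3.48, 0.196 and 29.0 CPM. In mature cells Fcnb was at 8.54, 2.92 and 16.9 CPM, again lowest on D2, from 26, 15 and 104 UMIs. In cycling precursors it was at 611, 565 and 598 CPM, with a D2 log2 ratio of -0.11 (95% interval -0.19 to -0.03). In the 40 GMP-like cells of D2, Fcnb (799, 316 and 1034 CPM) and Ngp (7768, 3707 and 7547 CPM) were the 2 members of 7 at least 1 lower, against 1.5% of genes, and 0 were higher, against 5.95%.

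Camp in immature cells stood at 37614, 23306 and 34719 CPM, lower on D2 than in the other libraries, with a log2 ratio over naive of -0.69 (95% interval -0.70 to -0.68) and -0.997 relative to the median gene. Camp was also lower on D2 in cycling precursors (62859, 46475 and 57003 CPM), pre-neutrophil-like (62085, 38672 and 55804 CPM) and mature cells (9172, 8009.9 and 8217 CPM). Ngp was lower on D2 in cycling precursors, with 52709.8, 35723 and 49819 CPM, while in mature cells it stood at 9877, 12033 and 10763 CPM, 0.28 above naive on D2 but -0.02 relative to the median gene. Ltf and Lcn2 in immature cells differed from naive by 0.06 and 0.00 on D2, which relative to the median gene put both below naive, at -0.25 and -0.30. The median share of a cell's UMIs from all 10 genes was 9.72%, 7.17% and 9.76% in immature and 1.22%, 1.83% and 1.16% in mature cells of naive, D2 CTX and D7 CTX BM. The sum in mature cells was 0.23 above naive on D2 in CPM and -0.08 relative to the median gene, so its direction depends on the scale.

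The gelatinase genes were higher on D2 already at the cycling stage. In cycling precursors Mmp8 stood at 44.5, 261 and 84.0 CPM and Mmp9 at 64.3, 385 and 93.3 CPM in naive, D2 CTX and D7 CTX BM. The D2 log2 ratios were 2.56 (95% interval 2.34 to 2.77) and 2.58 (95% interval 2.41 to 2.76), which made them the 2 members at least 1 log2 unit higher in this stage, against 8.02% of genes, with 0 members lower, against 0.706%. B lineage-like cells held 7.44, 32.5 and 3.003 CPM of Mmp8 and 6.38, 26.6 and 1.001 CPM of Mmp9, and so stood higher on D2 as well but below the cycling precursors. After thinning, 21.1% (16.1 to 26.9) of D2 cycling precursors held a UMI of Mmp8 and 36.6% (30.4 to 43.2) one of Mmp9, against 4.77% (2.90 to 7.35) and 7.04% (4.73 to 10.0) of naive and 3.37% (2.53 to 4.399) and 3.11% (2.30 to 4.11) of D2 B lineage-like cells (unthinned 48.5%, 66.5%, 14.6%, 26.3%, 9.21% and 7.74%). The median immature score was 1.99 in naive BM, 2.56 on D2 and 2.11 on D7 in cycling precursors. Without the cycling cells that also passed the immature or mature limit, which left 387 naive, 160 D2 CTX and 1275 D7 CTX cells, Mmp8 stood at 32.2, 155 and 27.3 CPM and Mmp9 at 56.6, 214 and 56.3 CPM. The D2 log2 ratios were then 2.26 (1.99 to 2.54) and 1.92 (1.71 to 2.13). The D7 ratios, 0.92 and 0.54 with all cycling cells, were then -0.24 (-0.51 to 0.04) and -0.01 (-0.21 to 0.20), which no longer put D7 above naive.

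In the 27 pre-neutrophil-like cells of D2, Mmp8 stood at 961 CPM, against 261 in naive and 109 in D7 CTX cells, and was the 1 member at least 1 log2 unit higher, against 6.61% of genes, with 0 lower, against 2.84%. In immature cells Mmp8 stood at 2458, 3572 and 1612 CPM and Mmp9 at 1721, 2413 and 1179 CPM, both highest on D2 and lowest on D7. The share of cells with a UMI of Mmp8 was 83.5% (81.0 to 85.8) in naive BM, 93.6% (91.2 to 95.5) on D2 and 70.6% (68.8 to 72.3) on D7, in immature cells after thinning, against 93.2%, 98.1% and 89.0% without it. Cd177 in immature cells (921, 1243 and 836 CPM) was also highest on D2, by 0.43 over naive and 0.13 over the median gene. In mature cells 0 of the 9 members counted were at least 1 higher on D2, against 2.47% of genes, or lower, against 0.407%. Mmp8 and Mmp9 stood there at 2706, 3797 and 2120.1 CPM and 2144, 2697 and 1515 CPM. Relative to the median gene, the D2 log2 ratios of Mmp8 and Mmp9 were 0.23 and 0.18 in immature and 0.19 and 0.03 in mature cells.

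**Figure D4:**
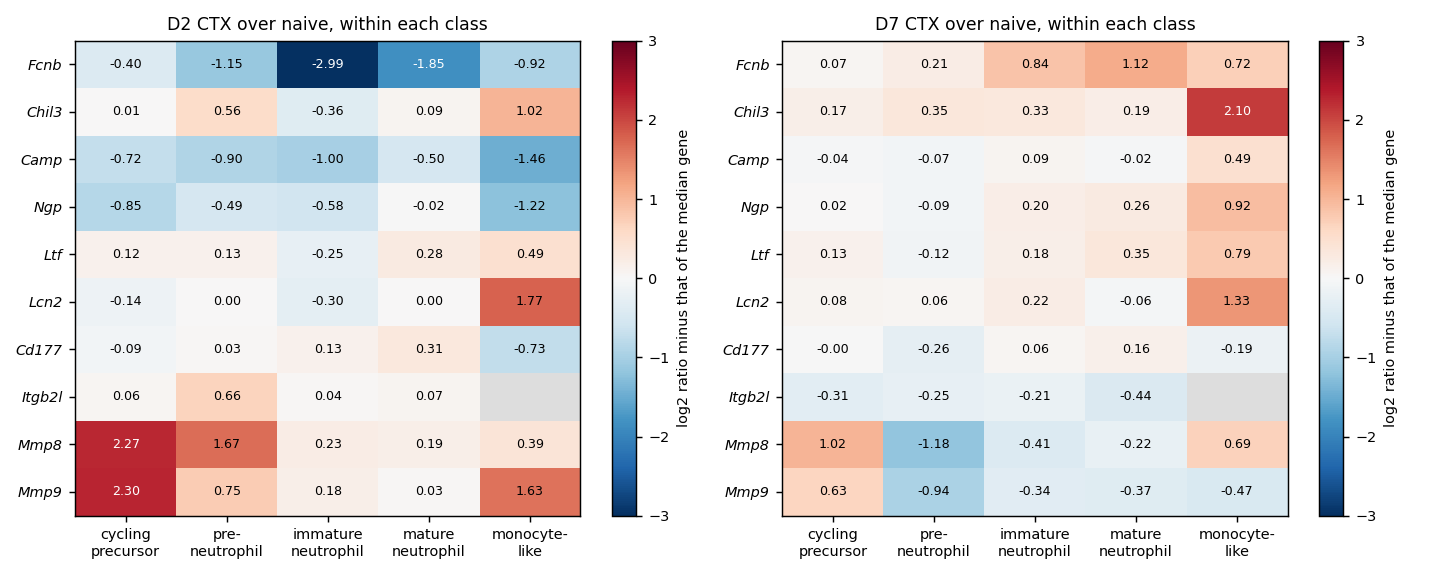
Log2 ratio of CPM over naive of each member within a cell class of whole BM, minus that of the median gene of the class, for D2 CTX (left) and D7 CTX (right). Red is above and blue below the median gene, and grey cells had fewer than 20 UMIs in the pair. On D2, Mmp8 and Mmp9 in cycling precursors (2.27 and 2.30) and Fcnb in immature cells (-2.99) stand out, while on D7 most neutrophil stage values lie close to 0.

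On D7 the stages were closer to naive BM, with Mmp8 and Mmp9 lower than naive from pre-neutrophil-like to mature cells and Fcnb higher in immature and mature cells. The median gene differed from naive by -0.08 to -0.20 log2 units within the stages. The sum of the 10 genes differed by -0.09 in cycling precursors, -0.14 in pre-neutrophil-like, -0.06 in immature and -0.08 in mature cells, and relative to the median gene by 0.00, -0.06, 0.14 and 0.06, so its sign within immature and mature cells depends on the scale. Mmp8 in pre-neutrophil-like cells stood at 261 CPM in naive and 109 in D7 CTX BM and Mmp9 at 329.7 and 162 CPM. With log2 ratios of -1.26 (95% interval -1.40 to -1.11) and -1.03 (95% interval -1.15 to -0.90), they were the 2 members at least 1 lower, against 0.325% of genes, with 0 higher, against 0.384%. In immature and mature cells their ratios were -0.61 and -0.55, and -0.35 and -0.50. Fcnb was above naive by 0.64 (95% interval 0.43 to 0.86) in immature and 0.99 (95% interval 0.36 to 1.67) in mature cells. In B lineage-like cells Fcnb was 29.0 CPM on D7, from 58 UMIs in 202 cells, and 3.48 in naive BM. Mature cells of D7, at 16.9 CPM, lay below the D7 B lineage level, and immature cells, at 75.3 CPM, above it. Single B lineage-like cells on D7 reached 10.8% of UMIs from the 10 genes, against a median of 0.0469%, so a few cells can weigh on that level. The part of free RNA or mixed droplets in the Fcnb difference was not tested. In cycling precursors, immature and mature cells 0 members of 10, 10 and 9 counted were at least 1 log2 unit apart from naive on D7, where 0.39%, 0.401% and 0.698% of genes were higher and 0.442%, 0.916% and 1.46% lower. In GMP-like cells, Chil3 (109, 212 and 220.3 CPM) was the 1 member of 7 at least 1 higher on D7, against 0.523% of genes, and 0 were lower, against 0.418%.

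Monocytes share a progenitor with neutrophils, and some that arise from GMPs carry neutrophil transcripts. In the sorted CD11b+Ly6Chi libraries, the monocyte-like cells (1828 naive and 2424 CTX) expressed a subset of the 10 genes: Chil3, Mmp8, Cd177, Fcnb and Lcn2. Chil3 stood at 289 CPM (282 to 296) in naive and 502 CPM (494 to 511) in CTX cells, a log2 ratio of 0.80 (95% interval 0.75 to 0.84). Fcnb stood at 56.0 CPM (52.9 to 59.3) and 93.9 CPM (90.3 to 97.6), with 0.74 (95% interval 0.65 to 0.84). Both were higher after CTX by more than counting error, and Lcn2 slightly so, at 34.9 and 41.6 CPM. Mmp8, at 123 and 128 CPM, had a log2 ratio of 0.06 (95% interval -0.01 to 0.13), and no difference was detectable at this depth. Cd177 was lower after CTX, at 111 and 72.9 CPM and a log2 ratio of -0.61 (95% interval -0.70 to -0.52). Of these 5 genes, the members at 20 CPM or more in either library, 0 were at least 1 log2 unit apart, against 0.018% of genes higher and 0.756% lower, with a median gene at 0.03.

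The other members were nearly absent from sorted monocyte-like cells. Camp stood at 2.47 and 8.19 CPM, from 54 and 224 UMIs, with a log2 ratio of 1.73. It was thus past 1 but below the level limit for the count. Ngp stood at 1.01 and 5.34 CPM, from 22 and 146 UMIs. Its log2 ratio of 2.41 (1.76 to 3.13) was larger than that of Camp, and its level was also below the limit. Ltf stood at 0.961 and 1.57 CPM and Mmp9 at 0.412 and 0.183 CPM, the latter from 9 and 5 UMIs. Itgb2l had 0 UMIs, where 3 UMIs would be 0.137 and 0.110 CPM. Neutrophil-stage cells that had passed the sort, 8 pre-neutrophil-like, 6 immature and 13 mature cells in the naive and 7, 34 and 12 in the CTX library, held most Camp: 50.8% of its naive UMIs lay in the pre-neutrophil-like and 49.2% of its CTX UMIs in the immature cells. The sort also passed 3 GMP-like cells and 3 cycling precursors in the naive and 39 and 2 in the CTX library. All neutrophil stages together, GMP-like cells included, held 45 of 1270 naive and 515 of 3092 CTX UMIs of Fcnb. The stages outside GMP-like cells held 41 and 60 of them, so most of the 515 lay in the 39 GMP-like cells. In the whole sorted libraries the sum of the 10 genes was 1536 CPM in naive and 2441 CPM in CTX cells, a log2 ratio of 0.67 (95% interval 0.65 to 0.69), and within the monocyte-like cells 619 and 854 CPM, or 0.46 (95% interval 0.43 to 0.49). Mmp9, just under the limit of 20 CPM for the count, stood at 6.10 and 18.3 CPM and had the highest ratio of the members, 1.58 (95% interval 1.31 to 1.86). Ltf, 1 of 8 members counted, was at least 1 log2 unit higher in the whole CTX library, against 0.144% of genes, with 0 lower, against 0.811%, and 62.5% of its CTX UMIs lay in the 34 immature cells. After thinning, Chil3 was found in 20.7% (18.9 to 22.6) of naive and 27.9% (26.1 to 29.8) of CTX monocyte-like cells (unthinned 50.9% and 59.5%), and Camp in 0.549% (0.264 to 1.01) and 1.16% (0.771 to 1.67) (unthinned 2.90% and 8.79%). The sorted libraries held 7 and 6 B lineage-like cells, with 0 and 1 UMIs of the 10 genes.

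The sorted monocyte-like cells were also divided by the score of Mpo, Elane, Prtn3, Ctsg and Ms4a3, with 142 naive and 234 CTX cells above a limit of 1.5 (azurophil-high) and the rest below. Fcnb stood at 118 CPM in azurophil-high and 46.9 CPM in azurophil-low naive cells and at 196 and 76.2 CPM in CTX cells, higher on the azurophil-high side in both libraries. Chil3 was lower on that side, at 81.9 and 319.6 CPM in naive and 164 and 561 CPM in CTX cells. So were Mmp8, at 27.1 and 137 CPM in naive and 37.1 and 144 CPM in CTX cells, and Cd177, at 19.9 and 125, and 21.8 and 81.8 CPM. The CTX levels of Chil3 and Fcnb were above the naive ones on both sides, and those of Cd177 below on the azurophil-low side. Lcn2 stood in naive cells at 59.1 and 31.3 CPM on the azurophil-high and azurophil-low sides, and in CTX cells at 39.6 and 41.9 CPM.

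**Figure D5:**
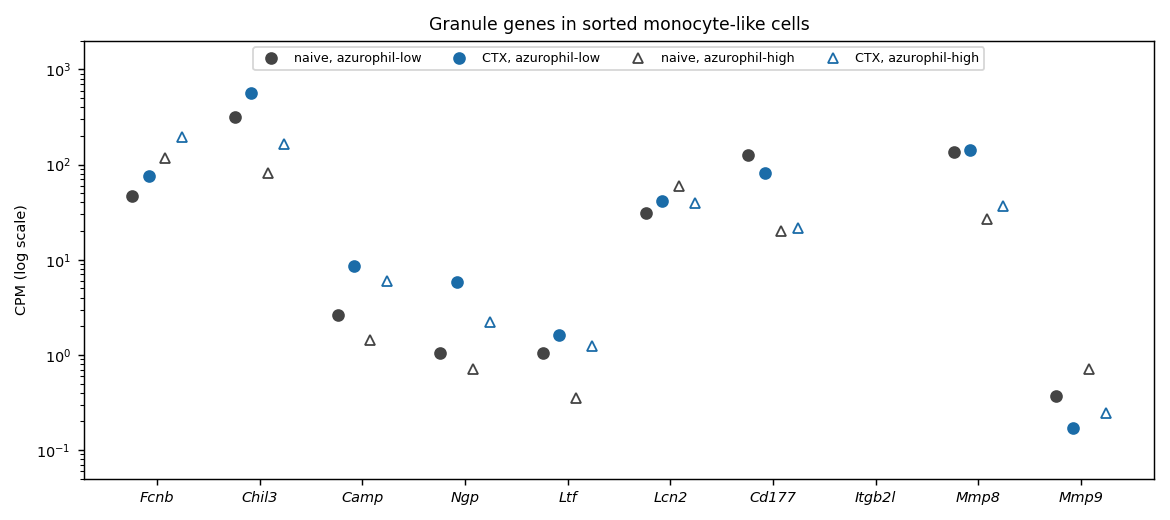
Level in CPM (log axis) of each member in sorted monocyte-like cells of naive and CTX mice, divided into cells with a low (filled circles) or high (open triangles) azurophil gene score. Itgb2l had 0 UMIs and is not drawn. Fcnb is higher and Chil3, Cd177 and Mmp8 are lower in azurophil-high cells, and Chil3 is higher in CTX than in naive cells on both sides (561 against 319.6 CPM in azurophil-low cells).

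In monocyte-like cells of whole BM (535, 202 and 793 cells), Chil3, Mmp8, Cd177 and Fcnb stood above the B lineage level in all 3 libraries. Chil3 stood at 116, 242 and 476 CPM in naive, D2 CTX and D7 CTX BM, against 9.96, 6.47 and 28.0 CPM in B lineage-like cells, and was higher in both treated libraries, with log2 ratios of 1.06 (95% interval 0.90 to 1.23) and 2.04 (95% interval 1.90 to 2.18). Mmp8 was at 96.0, 129.9 and 148 CPM and Cd177 at 114, 70.8 and 96.0 CPM, against B lineage levels of 7.44, 32.5 and 3.003 CPM and 3.38, 7.64 and 17.5 CPM. Fcnb was at 32.5, 17.6 and 51.3 CPM, against 3.48, 0.196 and 29.0 CPM. Cells with a T or NK cell-like score (Cd3e, Cd3d, Trbc2, Nkg7 and Klrb1c) held 40.6 CPM in naive BM and 85.1 CPM on D7, above the monocyte-like level. These levels rested on 26 UMIs in 178 cells and 26 UMIs in 28 cells, and on D2 the 301 such cells held 0 UMIs. The score was not confined to T and NK cells, with a median of 0.510 in naive GMP-like and 0 in naive B lineage-like cells. Camp (358, 134 and 479 CPM) and Ngp (277, 122 and 500.2 CPM) were above the B lineage level in naive and D2 CTX BM and below it on D7, by log2 ratios of -1.45 and -1.23. The D7 B lineage level came from 202 cells, in which the 10 genes had a median of 0.0469% of UMIs and a maximum of 10.8%. In naive T or NK cell-like cells Camp stood at 613 and Ngp at 231 CPM. That was above the naive monocyte-like level for Camp and close below it for Ngp. The values of both genes in naive and D7 CTX monocyte-like cells are thus not claimed as expression of these cells. The part of free RNA or mixed droplets in them was not tested. Lcn2 (52.6, 185 and 126 CPM) stood above the B lineage level on D2 by 1.497 and below it on D7 by -0.58. Of 7 members counted on D2, 2 (Lcn2 and Chil3) passed 1 log2 unit above naive, against 3.05% of genes, and 2 (Camp and Ngp) at least 1 lower, against 1.72%. For Camp and Ngp the direction differed within the class, where the D2 ratio of Camp was 1.53 in azurophil-high and -3.52 in azurophil-low cells and that of Ngp 2.22 and -3.19. Naive monocyte-like cells reached 8.10% of UMIs from the 10 genes in a single cell, against a median of 0.0438%. On D7, 2 of the 8 members counted (Lcn2 and Chil3) were higher, against 0.333%, and 0 lower, against 0.175%, and the D7 value of Lcn2 is one that lies below the B lineage level.

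The genes around the members in this pathway were counted from lists that were chosen with earlier results of these data known. Of 8 regulators of granulocyte genes, 6 had enough UMIs in whole BM, and on D7 Cebpe (1.14) and Cebpd (1.01) were at least 1 log2 unit higher, against 1.41% of all genes, 0 were lower, and the median was 0.75, where Spi1, encoding PU.1, stood at 0.75 and the lowest were Cebpb (0.75), Csf3r (0.38) and Runx1 (-0.69). Cebpe, which drives the specific granule wave, stood at 159, 132 and 351 CPM in naive, D2 CTX and D7 CTX BM, and by stage in naive BM at 329, 614, 485, 304 and 92.6 CPM from GMP-like to mature cells, so it was highest in cycling precursors. It is 1 of the genes of the pre-neutrophil-like score, which also helps admit cells to the cycling class. Its levels in both classes are thus not independent of the markers. Of 10 partners, receptors and inhibitors, 6 were tested on D7, with 1 higher (Serpinb1a at 1.17, an inhibitor of neutrophil serine proteases), 1 lower (Pecam1 at -1.63, an adhesion molecule that binds CD177) and a median of 0.69, and Timp2, an inhibitor of matrix metalloproteinases, at 0.91. The integrin subunit genes Itgb2 and Itgam stood at 0.78 and 0.60 and the formyl peptide receptor gene Fpr2 at 0.23. Of 26 other granule cargo and membrane genes, 22 were tested, with 6 higher and 1 lower and a median of 0.74. Beside the counts of these lists on D7, 1.41% of all genes were higher and 22.3% lower. The highest were Orm1 (1.41), Lrg1 (1.39) and Anxa1 (1.35), and the lowest Stom (-1.08), Vamp2 (-0.57) and Olfm4 (0.16). In the sorted libraries 0 genes of these lists were past 1 log2 unit, with 16 of the other granule genes, 7 regulators and 4 partners tested. Of all genes in the whole sorted libraries, 0.144% were higher and 0.811% lower. On D2 the medians were 0.29 for these genes (24 tested, 5 higher, 1 lower), 0.44 for the regulators (6 tested, 1 higher, 0 lower) and 0.72 for the partners (6 tested, 0 in either direction), against 5.4% of all genes higher and 3.21% lower.

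The 4 azurophil genes Mpo, Elane, Prtn3 and Ctsg form the granule wave before the members, and they also define GMP-like cells here. On D7 they stood between 0.47 (Elane) and 0.79 (Prtn3) log2 units above naive whole BM, with Mpo at 0.48 and Ctsg at 0.67 and a median of 0.58, below the 1.09 of Fcnb, the earliest member. On D2 their median was -0.41, with 1 of 4 (Elane, -1.30) at least 1 lower, against 3.21% of genes. In immature cells of D2, 3 of the 4 were tested and all 3 were at least 1 lower, against 0.401% of genes, at -3.38 for Mpo, -4.30 for Elane and -3.72 for Prtn3, beside -2.69 for Fcnb and -0.69 for Camp. The other 8 members lay between -0.27 (Ngp) and 0.54 (Mmp8) in these cells. On D7 the same cells had a median azurophil log2 ratio of -0.24. The median score of the GMP-like markers was 0.343 in naive immature and 0.277 in naive B lineage-like cells, and 0 in both classes on D2. The part of free RNA in the azurophil ratios of immature cells was not tested.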

How the data were processed

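The authors processed 10x Genomics 3′ V3 reads with Cell Ranger 3.1 on mm10 and deposited raw counts of UMIs per gene and barcode for 5 libraries. Barcodes with 200 or more genes and under 20% mitochondrial UMIs were kept, as in the study. A cell's score for a marker list was the mean of ln(1 + UMIs scaled to 10000). The marker lists leave out the 10 genes, and score limits were chosen after the scores were seen. The members and lists were chosen with earlier results of these data known. Named genes are the members, the 3 highest and 3 lowest genes of a list, and the 10 genes most alike to the members. Levels were summed UMIs per 1000000 (CPM) in kept cells. A gene counted as higher or lower with a log2 ratio of at least 1 after 1 CPM was added, among genes with 200 or more UMIs over both libraries and 20 or more CPM in 1. With 1 library per group no test was made, and 95% intervals are exact. The fold calls were tested on simulated data with counting error only, which cannot show the effect of variation between mice or libraries. Positions came from GENCODE M21 (GRCm38) and promoters from RefSeq. Python 3.11.15, numpy 2.4.6, scipy 1.17.1 and pandas 2.3.3 were used.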

Additional observations from a re-analysis of the deposited data

Results flagged for a closer look

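For 10 values the D2 CTX and D7 CTX libraries lay on opposite sides of naive, by at least 0.5 log2 units on each side and with counting intervals that leave out 0. Others, such as Mmp9 in immature cells (0.49 and -0.55), lay on opposite sides by less. Both comparisons use the same naive library, each group is 1 library, and the difference between the days was not tested. In whole BM these were Camp, at a log2 ratio over naive of -0.71 on D2 and 0.99 on D7, Ngp at -0.57 and 1.08, and Fcnb at -0.70 and 1.09. In pre-neutrophil-like cells, of which D2 had 27, they were Mmp8, at 1.88 on D2 and -1.26 on D7, and Mmp9, at 0.97 and -1.03. In immature neutrophil-like cells they were Mmp8, at 0.54 and -0.61, and Fcnb, at -2.69 and 0.64. In mature neutrophil-like cells Fcnb stood at -1.55 and 0.99. Its D7 level in these cells, 16.9 CPM, was below the 29.0 CPM of B lineage-like cells of that library. In monocyte-like cells Ngp stood at -1.18 and 0.85 and Fcnb at -0.88 and 0.66. The Ngp level of monocyte-like cells on D7 was below that of B lineage-like cells of the library. The Fcnb level was below that of the 28 T or NK cell-like cells.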

How the results depend on the processing

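Each group was 1 library, so no replicate could be left out. No paired analysis was possible because the groups hold 1 library each. The log2 ratio of the 10 genes summed in whole BM on D2, -0.41, was -0.38 with at least 500 genes and under 10% mitochondrial UMIs, -0.48 without the 5% of cells with the most UMIs, -0.39 without cells under 2000 UMIs, -0.46 with the members, S100a8 and S100a9 left out of the total, -0.58 scaled to the median gene, -0.70 as a mean over cells and -0.41 with the B lineage level subtracted. In that order, the D7 ratio of 1.04 was 1.04, 0.78, 1.01, 1.45, 1.62, 1.03 and 1.01. The sorted ratio of 0.67 was 0.64 scaled to the median gene and 0.71 as a mean over cells.

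In immature cells the D2 ratio of -0.28 was -0.16 and -0.34 with limits 1.5 times higher and lower, -0.48 with the shortened total and -0.59 scaled to the median gene. The D7 ratio of -0.06 was near 0 and turned above it in 3 settings: 0.013 with higher limits, 0.14 scaled to the median gene and 0.0068 as a mean over cells. It was -0.14 with lower limits, -0.079 without cells under 2000 UMIs, -0.0077 with the shortened total and -0.10 with the B lineage level subtracted.

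Without a filter on low values, the genes past the fold in whole BM went from 336 higher and 200 lower to 815 and 377 on D2 and from 1250 to 2793 lower on D7. In sorted cells they went from 8 and 45 to 39 and 101, in immature cells from 64 and 11 to 612 and 259 on D2 and from 14 and 32 to 73 and 189 on D7. Scaling to the median gene gave 190 higher on D2, 455 higher and 354 lower on D7, 5 higher in sorted cells, and in immature cells 14 and 35 on D2 and 26 and 17 on D7. Thinned to 2000 UMIs, with cells below that depth left out, Mmp8 was found in 90.7%, 97.2% and 81.4% of naive, D2 CTX and D7 CTX immature cells and Chil3 in 28.7% and 39.2% of naive and CTX sorted monocyte-like cells. Of 72 alternative values for single members past the fold, 72 kept their direction and 59 stayed past it. Over all single-member values, including those near 0, 41 of 50 kept their direction scaled to the median gene, 44 of 50 as a mean over cells, 46 of 50 with the shortened total, 49 of 50 without the top 5% of cells, 39 of 40 with the B lineage level subtracted, 17 of 20 with limits 1.5 times higher and 17 of 20 with lower ones, 2 of 4 without cycling cells past later limits, and all 50 with the stricter cell limits and all 50 without cells under 2000 UMIs. The other 24 values for these sums, counts and shares moved by less than their counting interval or by at most 1.5 times, those with 0.1 CPM added among them. The cause of these differences was not tested. The settings without cells under 2000 UMIs, without cycling cells past later limits and with counts scaled to the median gene were chosen after seeing the data.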
